A study of Mus musculus with 2 samples.

Results

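The genes described here encode the proteasome, its activators, its inhibitor and its assembly chaperones. They were taken by name, as every row whose gene symbol is Psma to Psmg followed by a number, which gave 48 of 17024 genes. The set was chosen with earlier results of these data known. RNA sequencing compared their transcripts in cells sorted from the small intestine: T helper 17 (Th17) cells and group 3 innate lymphoid cells (ILC3s). All mice were C57BL/6, at 6 to 8 weeks of age. The Th17 cells were GFP-positive T cells from IL17A_IRES_GFP knock-in mice, and the ILC3s were GFP-positive ILC3 cells from IL23R_GFP knock-in mice, so genotype, reporter and cell type differ together and cannot be told apart. Each group held 1 library, with 17555055 reads over genes for Th17 and 22509405 for ILC3, and the number of animals behind each is a detail not given in the sources used here. No difference below has a replicate check and no p-value was computed, and ranges beside a fold are exact 95% intervals for counting error between these 2 libraries.

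The proteasome degrades proteins that carry ubiquitin. Its core particle stacks rings of alpha and beta subunits, with the active sites on 3 of the beta subunits, and its regulatory particle, made of a base with ATPases and a lid, binds, unfolds and deubiquitinates the substrate. In lymphocytes, and in other cells under interferon gamma, the active subunits Psmb5, Psmb6 and Psmb7 are exchanged in newly made particles for the inducible subunits Psmb8, Psmb9 and Psmb10, which gives the immunoproteasome. The activator PA28, made of Psme1 and Psme2, is induced with them, and both favour the making of peptides that fit MHC class I molecules.

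Constitutive subunits were higher in the Th17 library, and of the 5 inducible genes only Psmb9 exceeded their median difference. All 31 genes of constitutive core and regulatory particle subunits had more normalized counts in Th17 (the authors' read counts divided by a size factor per library), by 1.54-fold at the median. Psmb8, Psme1 and Psme2 lay within 1.16-fold of equal, Psmb9 was 1.76-fold higher in Th17, and Psmb10 was 1.42-fold higher in ILC3. Of the 46 members that reached 100 normalized counts in either library, 43 were higher in Th17 at any size, which is 93.5%, against a background of 54.9% of all genes at that level. The other 2 members, Psma8 and Psmb11, stayed under 100 in both libraries.

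A difference was called at 2-fold or more on log2(normalized count + 1), a scale that understates differences of low genes, and the higher library had to reach 100 normalized counts. By that rule 10 members were higher in Th17 (21.7% of 46, background 16.2%) and 1 was higher in ILC3 (2.17%, background 16%). At 2-fold the share of members called in Th17 was thus near the share of all genes, and few members lay on the ILC3 side. The comparison depended on the cut, with 25 of the 46 called in Th17 at 1.5-fold (background 28%) and 1 at 4-fold (6.4%). Of the 31 constitutive subunits, 8 were called in Th17 at 2-fold, against 11.4% of genes at their levels. All 48 members carry an adjusted p of 1 in the authors' deposited table, as do 16092 of all 17024 genes. That value therefore does not set the members apart from other genes.

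Other differences between the libraries moved with this lean towards Th17, and their part in it was not tested. T cell markers were higher in Th17 for 8 of 8 genes and ILC3 markers higher in ILC3 for 8 of 8, as labelled (sums of 83160.1 and 8032 for T cell genes, 33565 and 130317 for ILC3 genes, Th17 given first), and the reporter gene of the Th17 sort, Il17a, was 35.3-fold higher in Th17. Il23r, the reporter gene of the ILC3 sort and an ILC3 marker of the list, had a normalized count of 5435 in Th17 against 9688 in ILC3, 1.78-fold higher in ILC3 (1.72 to 1.84) and not called. All 20 proliferation genes were called higher in Th17, with summed normalized counts of 44373 against 8064. Immediate early genes were higher in ILC3 for 18 of 20 and summed to 163406 in Th17 and 846769 in ILC3. Of cells that can carry other proteasome forms, stroma and endothelium markers were higher in ILC3 for 13 of 13 genes (sums of 2433 in Th17 and 13917 in ILC3, with Cdh5 and Kdr at 0 in Th17). B and plasma cell markers were higher in ILC3 for 6 of 7 genes (sums of 8616 and 17249.9) and epithelial ones for 10 of 10 (sums of 213 and 1299, Krt20 at 0 in Th17). Myeloid markers lay on both sides, 5 higher in Th17 and 8 in ILC3 (sums of 1500.4 and 2969, Mrc1 at 0 in ILC3). In such sorted bulk RNA, fewer cells of a type and less RNA per cell cannot be told apart. All 48 members together held 0.402% of Th17 reads and 0.295% of ILC3 reads.

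**Figure D1:**
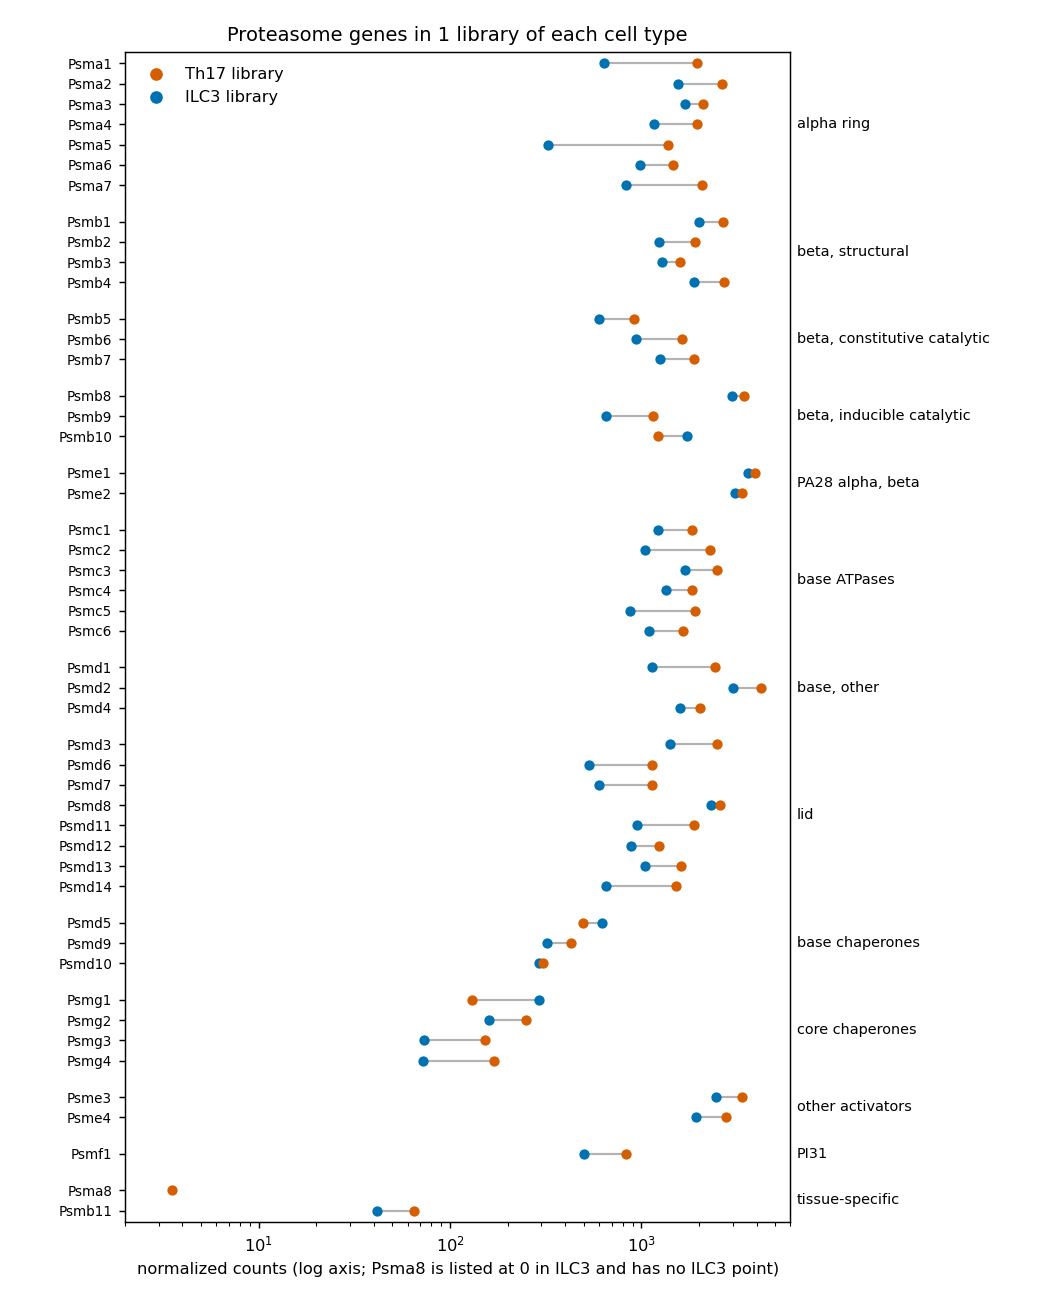
Normalized counts (log axis) of each proteasome gene in the Th17 library (orange) and the ILC3 library (blue), grouped by role, 1 library per cell type. Orange lies to the right of blue for every constitutive subunit, from Psmd8 at a normalized count of 2588 in Th17 against 2297 in ILC3 to Psma5 at a normalized count of 1373 in Th17 against 324 in ILC3, and to the left for Psmb10, Psmd5 and Psmg1.

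Promoter windows of the inducible catalytic genes, of their counterparts Psmb5 and Psmb6 and of the PA28 gene Psme1 are shown first, because the values that follow set these genes against each other. Each window runs from 250 bases before to 50 bases after the RefSeq start (GRCm38.p6), taken at the most upstream start where a gene has several and written 5′ to 3′ on the gene's strand, and capitals mark matches to the motifs searched. The windows are Psmb8 (chr17:34197945-34198244, + strand), Psmb5 (chr14:54617946-54618245, - strand), Psmb9 (chr17:34187281-34187580, - strand), Psmb6 (chr11:70525107-70525406, + strand), Psmb10 (chr8:105938343-105938642, - strand) and Psme1 (chr14:55578244-55578543, + strand).
Psmb8: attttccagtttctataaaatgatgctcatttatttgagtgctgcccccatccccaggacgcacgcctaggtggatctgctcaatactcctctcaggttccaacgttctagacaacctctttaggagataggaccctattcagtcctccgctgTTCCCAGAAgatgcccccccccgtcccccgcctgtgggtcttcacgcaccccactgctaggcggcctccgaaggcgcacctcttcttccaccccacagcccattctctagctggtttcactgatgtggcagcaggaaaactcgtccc
Psmb5: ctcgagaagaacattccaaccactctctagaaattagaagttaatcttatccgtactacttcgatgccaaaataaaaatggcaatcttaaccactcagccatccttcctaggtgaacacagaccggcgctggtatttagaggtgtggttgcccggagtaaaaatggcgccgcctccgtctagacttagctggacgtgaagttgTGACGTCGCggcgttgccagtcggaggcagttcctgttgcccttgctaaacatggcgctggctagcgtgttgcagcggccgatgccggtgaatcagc
Psmb9: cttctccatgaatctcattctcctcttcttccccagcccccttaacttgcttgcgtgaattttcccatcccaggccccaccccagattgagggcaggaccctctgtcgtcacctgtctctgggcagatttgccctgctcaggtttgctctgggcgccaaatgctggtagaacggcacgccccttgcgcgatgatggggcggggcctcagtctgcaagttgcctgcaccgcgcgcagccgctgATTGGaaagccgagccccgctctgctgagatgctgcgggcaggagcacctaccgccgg
Psmb6: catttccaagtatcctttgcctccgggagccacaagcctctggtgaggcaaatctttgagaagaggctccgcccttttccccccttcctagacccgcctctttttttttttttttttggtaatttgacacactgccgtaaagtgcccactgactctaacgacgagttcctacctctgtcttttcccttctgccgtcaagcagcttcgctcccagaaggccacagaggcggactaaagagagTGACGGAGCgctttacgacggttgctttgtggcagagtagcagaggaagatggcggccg
Psmb10: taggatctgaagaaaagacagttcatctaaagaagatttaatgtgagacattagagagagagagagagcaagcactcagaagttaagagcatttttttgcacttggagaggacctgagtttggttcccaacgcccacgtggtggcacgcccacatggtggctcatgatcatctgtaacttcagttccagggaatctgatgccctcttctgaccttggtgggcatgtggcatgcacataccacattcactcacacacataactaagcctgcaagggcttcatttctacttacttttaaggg
Psme1: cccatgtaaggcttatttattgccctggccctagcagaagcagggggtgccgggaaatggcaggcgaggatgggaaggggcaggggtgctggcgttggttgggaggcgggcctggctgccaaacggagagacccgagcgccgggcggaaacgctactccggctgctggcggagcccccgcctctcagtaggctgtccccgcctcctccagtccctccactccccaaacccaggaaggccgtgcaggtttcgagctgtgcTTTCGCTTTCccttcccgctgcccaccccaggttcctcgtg
The capitals are a STAT site (TTCNNNGAA) in Psmb8, cores of the antioxidant response element (TGACNNNGC) in Psmb5 and Psmb6, a CCAAT box read on the opposite strand in Psmb9, and an interferon-stimulated response element core (GAAA, any 2 bases, GAAA) read on the opposite strand in Psme1, and the window of Psmb10 held none of the 5. Both strands were searched. A window was found for 40 of the 48 members, not including Psmb7. The start used lay within 300 bases of a GENCODE M21 principal start for 36 of them, 52 bases away for Psmb10. Those of Psmb8, Psmb9 and Psmd13 lay 405, 434 and 426 bases downstream of such a start, and that of Psma6 lay 14553 bases upstream. All 4 windows were kept in the counts below.

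Of the 5 motifs, 4 lay in a share of member windows near that of all windows, and the interferon-stimulated core lay in a larger share, a difference that was not tested. The interferon-stimulated core lay in 5 of 40 member windows (12.5%) and in 3.44% of all 32851 windows, and of the inducible genes only Psme1 held it among the 5 with a window. The STAT site lay in 7.5% of member windows and 8.3% of all. The antioxidant core, which the factors NRF1 and NRF2 bind, lay in 15% and 12.4%, all of its matches outside the 5 inducible genes. The CCAAT box lay in 35% and 37.4%, and a form close to the NF-kappaB site (GGGA, any 4 bases, CC) in 20% and 20.7%. Forms of one motif can overlap another and a match is a run of letters, not a bound site.

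Among the inducible catalytic subunits, the 3 genes differed in size and direction. Psmb8 (LMP7), which replaces Psmb5 at the chymotrypsin-like site, had a normalized count of 3437 in Th17 against 2973 in ILC3, 1.16-fold (1.10 to 1.21) higher in Th17. Psmb9 (LMP2), which replaces Psmb6 at the caspase-like site, had a normalized count of 1144 in Th17 against 651 in ILC3, 1.76-fold (1.60 to 1.94) higher in Th17. Psmb10 (MECL-1), which replaces Psmb7 at the trypsin-like site, had a normalized count of 1216 in Th17 against 1727 in ILC3, 1.42-fold (1.32 to 1.53) higher in ILC3. The difference for Psmb9 was larger than that of 20 of 31 constitutive subunits, whereas Psmb10 lay below all 31 of them. Psmb8 lay below 30 of the 31, all but the lid gene Psmd8, and Psme1 and Psme2 lay below all 31.

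Their constitutive counterparts were close to one another. Psmb5 had a normalized count of 912 in Th17 against 603 in ILC3 (1.51-fold, 1.37 to 1.68), Psmb6 a normalized count of 1623 in Th17 against 937 in ILC3 (1.73-fold, 1.60 to 1.88) and Psmb7 a normalized count of 1872 in Th17 against 1244 in ILC3 (1.505-fold, 1.40 to 1.62), all higher in Th17. Reads of each inducible gene were then divided by those of its counterpart within each library, since a ratio of such ratios depends neither on gene length nor on the scaling between libraries. For Psmb9 over Psmb6 the read ratio was 0.705 in Th17 and 0.694 in ILC3, and the quotient of Th17 over ILC3 was 1.02 (0.896 to 1.15), an interval that holds 1. For Psmb8 over Psmb5 it was 3.77 in Th17 and 4.93 in ILC3, 1.31-fold larger in the latter (1.17 to 1.47). For Psmb10 over Psmb7 it was 0.649 in Th17 and 1.39 in ILC3, 2.14-fold larger in the latter (1.93 to 2.37). The balance of inducible to constitutive transcripts thus differed between the libraries at the trypsin-like site most, at the chymotrypsin-like site less, and not beyond counting error at the caspase-like site. With all reads divided by 10, as if each molecule had been read 10 times, the quotient of Th17 over ILC3 held 1 for Psmb8 (0.523 to 1.10) and not for Psmb10 (0.332 to 0.654).

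Written as shares of reads, Psmb8, Psmb9 and Psmb10 together made 56.8% (55.8 to 57.9) of the reads of the 6 catalytic genes in Th17 and 65.8% (64.8 to 66.7) in ILC3 (exact binomial intervals). Psmb10 made 39.4% (37.5 to 41.3) of the reads of its pair in Th17 and 58.1% (56.5 to 59.8) in ILC3. Psmb8 made 79.0% (77.7 to 80.3) and 83.1% (82.0 to 84.3), and Psmb9 41.4% (39.4 to 43.4) and 41.0% (38.7 to 43.2). These shares are of reads and not of molecules, so they are set side by side between libraries and not between sites. Part of the exons of Psmb7 (34.9% of 1160 bases in GENCODE M21) overlaps Nek6 on the opposite strand, which reached 275 normalized counts in the Th17 library and is at 0 in the ILC3 one. Without strand, reads of overlapping genes cannot be told apart, and use of strand is not stated for these libraries. With Psmb6 in place of Psmb7 the quotient for Psmb10 was 0.407 (0.364 to 0.454) and with Psmb5 0.465 (0.409 to 0.529), beside 0.468 (0.421 to 0.519) with Psmb7.

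**Figure D2:**
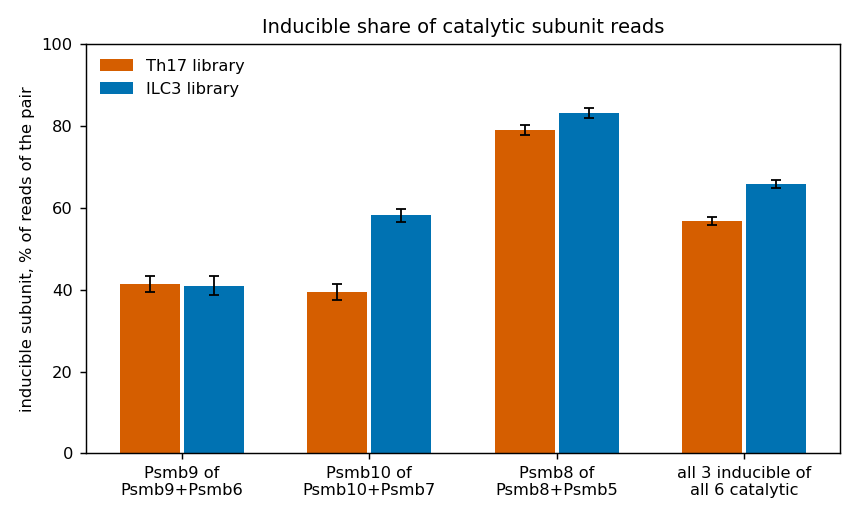
Share (%) of reads from the inducible subunit in each exchanged pair, and of all 3 inducible genes among the 6 catalytic genes, in the Th17 and ILC3 libraries; bars start at 0 and error bars are exact 95% binomial intervals. Bars for Psmb9 are level at 41.4% and 41.0%, and those for Psmb10 stand apart at 39.4% and 58.1%.

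PA28 transcripts were the most abundant of the family per length of transcript. Psme1 (PA28 alpha) had a normalized count of 3916 in Th17 against 3590.5 in ILC3, 1.09-fold (1.04 to 1.14) higher in Th17, and Psme2 (PA28 beta) a normalized count of 3363 in Th17 against 3078 in ILC3, 1.09-fold (1.04 to 1.15). Their log2 differences of 0.13 and 0.13 lay near the middle of all genes that reach 100 normalized counts, at percentiles 51.0 and 51.2. Psme3 (PA28 gamma), a nuclear activator that is not part of that heteromer, had a normalized count of 3348 in Th17 against 2444 in ILC3 (1.37-fold, 1.30 to 1.44), and Psme4 (PA200) a normalized count of 2779 in Th17 against 1935 in ILC3 (1.44-fold, 1.36 to 1.52). Over Psme3, the read ratio of Psme1 was 1.17 in Th17 and 1.47 in ILC3, 1.26-fold larger in the latter (1.17 to 1.35). The ratio of Psme2 was 1.005 in Th17 and 1.26 in ILC3, 1.25-fold larger in the latter (1.17 to 1.35). A near copy of Psme2, Psme2b, is annotated, and how the authors' counting split reads between them is not stated.

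The 7 genes of the alpha ring, which gates the entry to the core, varied widely. Psma5 had a normalized count of 1373 in Th17 against 324 in ILC3, 4.24-fold (3.77 to 4.77) higher in Th17 and the largest difference of any member above 100 normalized counts. Psma1 had a normalized count of 1955.5 in Th17 against 639.5 in ILC3 (3.06-fold, 2.80 to 3.34) and Psma7 a normalized count of 2084 in Th17 against 834 in ILC3 (2.50-fold, 2.31 to 2.70). The other 4 were higher in Th17 by less than 2-fold, from Psma3 (1.25-fold, 1.17 to 1.33) to Psma2 (1.70-fold, 1.60 to 1.81), with Psma6 at 1.49-fold and Psma4 at 1.68-fold between them. The intervals of Psma5, Psma1 and Psma7 overlapped neither each other nor those of the other 4. Structural beta genes differed less among themselves, with Psmb3 at 1.24-fold, Psmb1 at 1.33-fold, Psmb4 at 1.43-fold and Psmb2 at 1.56-fold, all higher in Th17.

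In the regulatory particle, 5 of 17 constitutive genes were called (background 11.4% of genes at the levels of the constitutive subunits) and all 17 were higher in Th17, by a median log2 of 0.62. With libraries scaled to their totals, 3 of the 5 calls were left, without Psmd1 and Psmd6. The background at these levels was not computed for that scaling, under which 14.1% of all genes were called in Th17, in place of 16.2%. Of the 6 base ATPases, which unfold the substrate, Psmc5 had a normalized count of 1911 in Th17 against 870.0 in ILC3 (2.20-fold, 2.03 to 2.38) and Psmc2 a normalized count of 2293 in Th17 against 1048 in ILC3 (2.19-fold, 2.04 to 2.35). The other 4, Psmc1, Psmc3, Psmc4 and Psmc6, lay between 1.37-fold and 1.51-fold. Among the remaining base genes, the scaffold gene Psmd1 had a normalized count of 2420.0 in Th17 against 1129 in ILC3 (2.14-fold, 1.999 to 2.30). The other scaffold gene, Psmd2, had a normalized count of 4204 in Th17 against 2996 in ILC3 (1.40-fold, 1.34 to 1.47), and the ubiquitin receptor gene Psmd4 a normalized count of 2029.6 in Th17 against 1587 in ILC3 (1.28-fold, 1.197 to 1.37).

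The 8 lid genes had a median log2 of 0.87, above that of the base ATPases at 0.60. Psmd14, which encodes the deubiquitinase of the lid, had a normalized count of 1514.5 in Th17 against 653 in ILC3 (2.32-fold, 2.12 to 2.54), and Psmd6 had a normalized count of 1134 in Th17 against 533 in ILC3 (2.13-fold, 1.92 to 2.35). Psmd11 and Psmd7, the latter the partner of Psmd14 in the enzyme dimer, stayed just under 2-fold at 1.99 and 1.90. Psmd3, Psmd13 and Psmd12 were 1.76-, 1.54- and 1.40-fold higher in Th17. Psmd8 had a normalized count of 2588 in Th17 against 2297 in ILC3, at 1.13-fold (1.06 to 1.19) the smallest difference of the 31 constitutive genes.

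**Figure D3:**
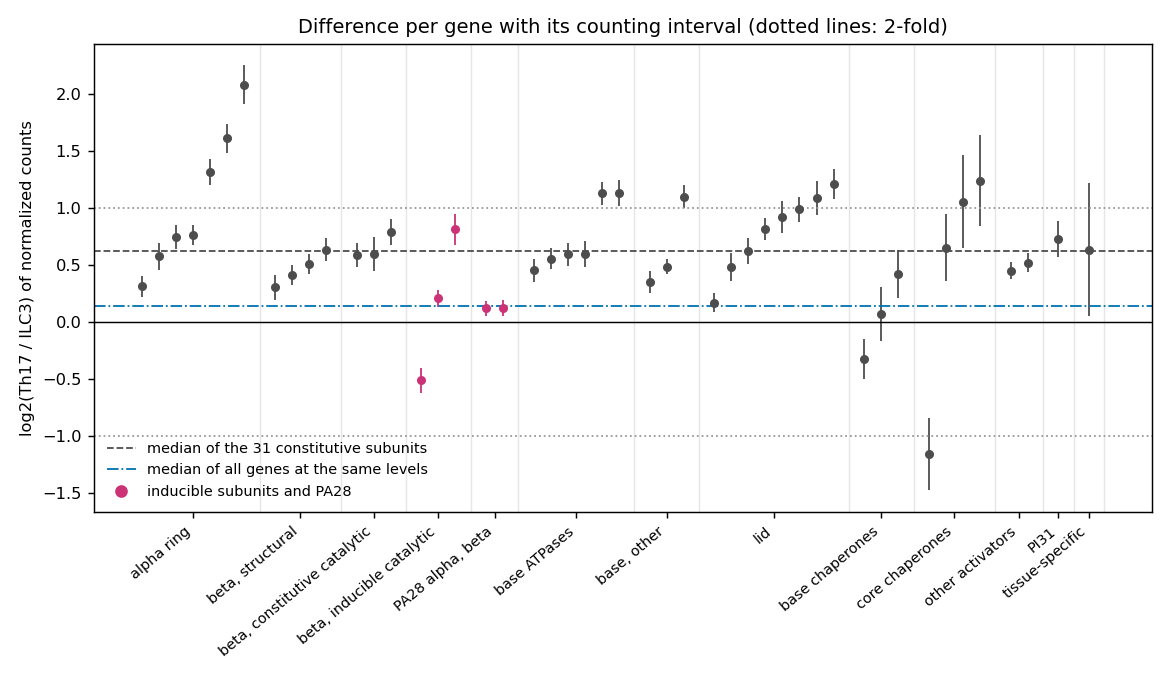
log2(Th17/ILC3) of normalized counts for each member with reads in both libraries, sorted within its role group, with exact 95% counting intervals; pink marks Psmb8, Psmb9, Psmb10, Psme1 and Psme2. All constitutive subunits lie above 0 around their median of 0.62, 4 of the 5 pink points lie below that median, and Psmb10 lies below 0.

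Genes of assembly factors differed in direction. Psmg1, whose product forms a dimer with that of Psmg2 on which the alpha ring is assembled, had a normalized count of 131 in Th17 against 290.0 in ILC3 and was the only member called higher in ILC3 (2.22-fold, 1.79 to 2.78). Psmg2 itself had a normalized count of 250.5 in Th17 against 159 in ILC3, 1.57-fold (1.29 to 1.93) higher in Th17. The genes of the second chaperone pair, Psmg3 (a normalized count of 152 in Th17 against 73.1 in ILC3; 2.07-fold, 1.57 to 2.76) and Psmg4 (a normalized count of 170.5 in Th17 against 72.3 in ILC3; 2.36-fold, 1.79 to 3.12), were called higher in Th17. Their intervals are wide because few reads lie behind them, and 26.8% of the exonic bases of Psmg3 overlap another annotated gene. Of the chaperones of the base, Psmd5 had a normalized count of 495 in Th17 against 619 in ILC3 and was 1.25-fold (1.11 to 1.41) higher in ILC3, Psmd9 was 1.34-fold (1.16 to 1.55) higher in Th17, and Psmd10 (gankyrin) had a normalized count of 306 in Th17 against 290.0 in ILC3 with an interval that holds equal values (0.894 to 1.24). Psmf1, encoding the regulator PI31, which inhibits the core in vitro, had a normalized count of 830.2 in Th17 against 501 in ILC3 (1.66-fold, 1.48 to 1.85, higher in Th17).

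Subunits known from single tissues were low. Psma8, an alpha subunit of the testis, had 3 reads in the Th17 library (3.53 normalized counts) and none in the ILC3 library, where a count of 0 allows up to 3 reads (2.55 normalized counts). In all, 2235 genes are at 0 in ILC3 and 714 in Th17. Psmb11, the beta subunit of thymic cortical epithelium, had a normalized count of 64.7 in Th17 against 41.7 in ILC3. No fold is drawn from Psma8.

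Levels were compared between genes only per length, as normalized counts per kilobase of the GENCODE M21 principal transcript, an annotation of another build than the authors' and so approximate. On that scale constitutive subunits spanned 647 to 2279.7 in Th17 (median 1285), a 3.53-fold range, and 262 to 1676 in ILC3 (median 671), a 6.41-fold range. Psme1 and Psme2 ranked first in both libraries, at 3521 and 3496 in Th17 and 3229 and 3199 in ILC3. Psmb8 was above its counterpart Psmb5 in both, with 2111 against 1015 per kilobase in Th17 and 1826 against 671 in ILC3. Psmb9 was below Psmb6 in both, with 846 against 2033.5 in Th17 and 481 against 1174 in ILC3. Psmb10 was below Psmb7 in Th17, at 927 against 1614, and above it in ILC3, at 1317.5 against 1073. Psmb5, Psmb6 and Psmb7 have annotated copies, and exons of Psmb5, Psmb7, Psmb8 and Psmb9 overlap other genes. How reads were assigned there is not stated, so the order within each pair is approximate. Psma5 had 262 per kilobase in ILC3, the lowest level of the constitutive subunits there, and 1108.5 in Th17, where 11 constitutive subunits were lower. Chaperone genes and Psmf1 were all below the constitutive subunits in Th17, at no more than 307 per kilobase.

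The lean of constitutive subunits towards Th17 was set beside other constitutive complexes. The lid shares its architecture with the COP9 signalosome, which removes NEDD8 from cullins, and with the translation factor eIF3, and the CCT chaperonin is another ring-shaped complex of the cytosol. CCT genes had a median log2 of 0.61 over 8 genes, eIF3 genes 0.53 over 12 and COP9 genes 0.40 over 9, against 0.62 over 31 constitutive proteasome genes. All genes of CCT and eIF3 were higher in Th17, as were 8 of COP9. None of the 3 lists had a member past 2-fold, whereas 8 of 31 constitutive proteasome genes were (background 11.4% of genes at their levels). With libraries scaled to their totals 6 of these 8 were left. The background at their levels was not computed for that scaling, under which 14.1% of all genes were called in Th17, in place of 16.2%. Genes at the levels of the constitutive subunits were higher in Th17 in 58.4% of 3686 cases, with a median log2 of 0.14. A lean towards Th17 was therefore also present in CCT and eIF3. The log2 differences of constitutive proteasome genes had an SD over genes of 0.413, against 1.39 over all genes at these levels.

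Proteasome partners outside the family leaned less. Of 22 measured partner genes, 15 were higher in Th17, 2 were called there (background 16.2%) and none in ILC3 (background 16%). Their median log2 was 0.25. The called genes were Pomp, the maturation factor of the core, at a normalized count of 1915.5 in Th17 against 882 in ILC3 (2.17-fold, 2.01 to 2.35), and Ddi2, the protease that activates NRF1, at a normalized count of 855 in Th17 against 415 in ILC3 (2.06-fold, 1.83 to 2.31). The ubiquitin-activating enzyme gene Uba1 and the unfoldase gene Vcp were 1.34- and 1.54-fold higher in Th17. Of 10 genes of the class I peptide pathway, 3 were called in Th17 (background 16.2%) and none in ILC3 (background 16%), with a median log2 of 0.38. These were Nlrc5, which activates class I genes, at a normalized count of 6905 in Th17 against 2604 in ILC3 (2.65-fold, 2.54 to 2.77), the peptide transporter gene Tap1 at a normalized count of 4881 in Th17 against 1979.8 in ILC3 (2.47-fold, 2.34 to 2.59) and the chaperone gene Calr (2.41-fold, 2.36 to 2.46). B2m, the light chain of class I, had a normalized count of 51599 in Th17 against 51452 in ILC3.

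Genes of the interferon response, to which Psmb8, Psmb9, Psmb10, Psme1 and Psme2 belong, differed in direction. A list without them had 19 measured genes, with the inducing cytokine gene Ifng among them. Of these, 6 were called in Th17 (background 16.2%) and 2 in ILC3 (background 16%), with a median log2 of 0.67. Ifng, the inducing cytokine, had a normalized count of 19688 in Th17 against 1909 in ILC3 (10.3-fold, 9.87 to 10.8), Mx1 and Gbp3 were 13.4- and 4.37-fold higher in Th17, and Irf7 was 3.70-fold higher in ILC3 (3.43 to 3.98). Irf1, a factor known to act on the Psmb9 and Tap1 promoter, was at a normalized count of 5310.3 in Th17 against 5391 in ILC3.

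**Figure D4:**
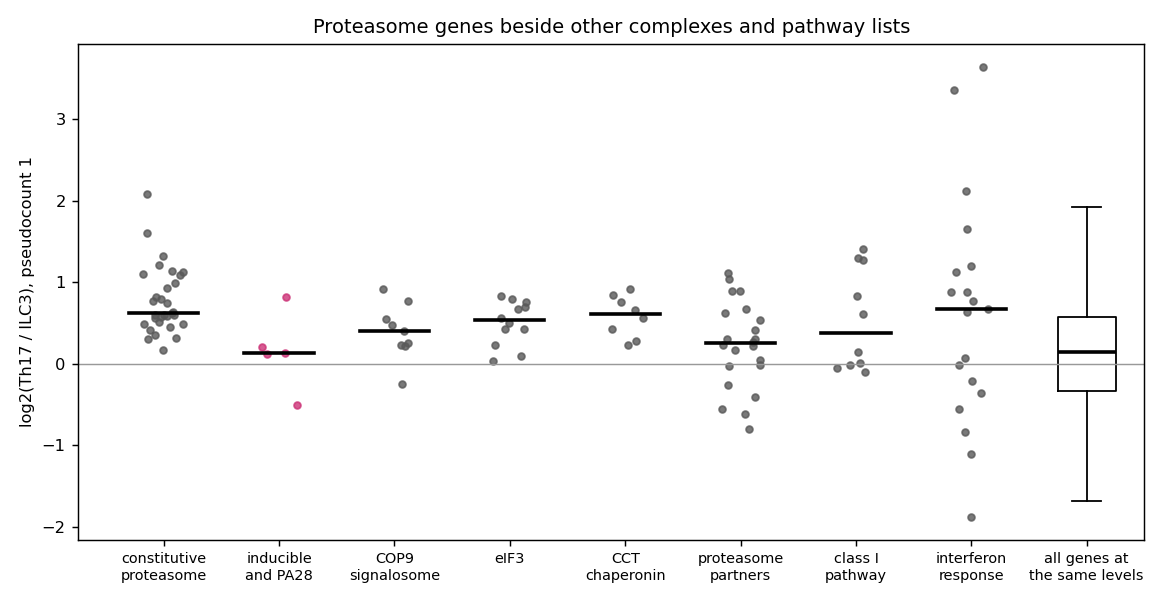
log2(Th17/ILC3) with a pseudocount of 1 for single genes (points) and their median (bar) in proteasome groups, other complexes and pathway lists, beside the distribution of all 3686 genes at the levels of the constitutive subunits (box from the first to the third quartile, line at the median, whiskers to 1.5 times the box height, outliers not drawn). The constitutive proteasome median of 0.62 lies level with CCT at 0.61, and the inducible genes have a median of 0.13.

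Some members share a promoter region with a divergent gene, and the neighbours could then be compared. In the RefSeq windows 6 members had such a neighbour. Psmb9 and Tap1, a known divergent pair, both were higher in Th17, by 1.76-fold (1.60 to 1.94) and 2.47-fold (2.34 to 2.59), although 15.7% of the exonic bases of Psmb9 overlap Tap1. Psma2 and Mrpl32 also had like values, with log2 differences of 0.77 and 0.84. Psma7 and Psmd13 did not follow their neighbours, with log2 differences of 1.32 beside -0.09 for Ss18l1 and 0.62 beside -0.74 for Sirt3. Of the exonic bases of Psmd13, 7.64% overlap Sirt3, which had a normalized count of 76.4 in Th17 against 128 in ILC3. For Psmc5 and Psmd10 the neighbours Ftsj3 and Atg4a were at 0.52 and 1.04 beside 1.13 and 0.08.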

How the data were processed

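Total RNA (1 ug, TRIzol) entered the TruSeq RNA preparation, per the labels' protocols. The authors deposited normalized counts, a signal equal to whole reads times a constant (1.18 for Th17, 0.850 for ILC3; 100% of values whole within 0.001). The authors also deposited an adjusted p-value per gene, computed from 1 library per group. TopHat2 2.0.6, HTSeq 0.5.4p3, DESeq 1.12.0 and mm8 are named per the submitters' processing notes, without order or settings.

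Of 17048 rows, 24 whose names had become dates were left out. Groups follow the sample titles. With 1 library per group no count model was fitted; recovered reads gave exact intervals (Clopper-Pearson for ratios and shares, conditional for ratios of ratios). Reads are not independent molecules, so intervals cover counting error only. In ILC3, 174 genes had a single read, against 1177 in Th17. List genes with a mean under 10 normalized counts were left out. Named were all members, of each other list up to 4 called genes with the largest differences and up to 2 uncalled ones with the highest mean, and the reporter genes; Nek6 and divergent neighbours were named for their position beside members. Members and lists were chosen with earlier results of these data known. The 2-fold cut was too, as the proteasome median was known to lie under a 4-fold cut used earlier.

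Lengths, overlaps and copies came from GENCODE M21 (GRCm38), where all 48 members matched by name; 4 have an annotated copy (Psmb5, Psmb6, Psmb7 and Psme2) and 12 share exonic bases with another gene. Promoters came from RefSeq (GRCm38.p6). Th17 and ILC3 libraries were simulated with counting error alone (17024 genes, 200 changed 3-fold, all with a mean of at least 200 normalized counts). The 2-fold rule called 100% of changed and 0 unchanged genes. Variation between replicate libraries was not simulated, so this cannot tell how many calls in the real data are false. Other scalings, pseudocounts, folds and minimums were tried and, chosen after seeing the data, other partners and subunit sets. Versions were matplotlib 3.10.9, scipy 1.17.1, pandas 2.3.3, numpy 2.4.6 and Python 3.11.15.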

Additional observations from a re-analysis of the deposited data

How the results depend on the processing

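Directions held for every called member in 5 alternatives of scaling and pseudocount, where no shift was large enough to reverse a 2-fold difference. Of 235 member values, 213 moved by no more than 1/2 of the width of their counting interval on the log2 scale. The 22 that moved further all did so under scaling to library totals, out of 47 members measured. Psmd10, not called, changed sign there, from 0.08 to -0.0325. Scaling to library totals shifted all log2 differences by -0.11. The medians then were 0.51 for constitutive subunits (from 0.62) and 0.0176 for PA28 alpha and beta (from 0.13), while the base chaperone median turned from 0.08 to -0.0325. Shifts were -0.06 for upper quartiles and under 0.01 for recomputed medians of ratios. Members called in Th17 numbered 25 of 46 at 1.5-fold (background 28%) and 1, Psma5, at 4-fold (6.4%), in place of 10. They numbered 7 under total scaling (background 14.1%), which lost Psmd1, Psmd6 and Psmg3. Under upper quartile scaling (background 15%) or a pseudocount of 10 (background 15.8%) they numbered 9, without Psmg3. Psmg1, the 1 member called in ILC3, was lost at 4-fold (0 calls, background 8.39%) and at a minimum of 1000 (0 calls, background 12.3%). The quotient of Psmb10 was 0.407 with Psmb6 as partner. Without Psmb7 and Psmb10 the inducible share was 64.4% in Th17 and 70.2% in ILC3, a narrower gap in the same direction. Reads divided by 10 widened the interval of Psmb8 over Psmb5 to hold 1, and that of Psme2 over Psme3 (0.631 to 1.003). No paired analysis was possible because each group has 1 library.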
